A study of Mus musculus with 6 samples.

Results

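The brush border genes described here are Mep1a, Mep1b, Anpep, Dpp4, Mme, Ggt1, Dpep1, Treh and Vil1. They were chosen by name, as the genes of the count table whose GENCODE M21 symbol is on that list, and all 9 were found among the 55450 genes of the table. By function 7 of the 9 are peptidases. Treh encodes trehalase, a disaccharidase, and Vil1 encodes villin, a protein that bundles actin, so the set is called brush border genes and not peptidases. To describe kidney mRNA in hyperuricemia-related CKD, the study sequenced 3 control mice, the day-0 group, and 3 mice taken on day 21. All were wild-type male C57BL/6J mice, bought at 7 weeks of age and kept for 1 week before use. According to the paper each group was killed on its own day, so the day-21 mice would be older at sampling. Age and treatment cannot be told apart in this design. The day-21 mice received adenine at 0.16 g/kg with potassium oxonate at 2.4 g/kg by gavage every day, and the day-0 mice are labelled with 20% PEG as their treatment. Potassium oxonate blocks uricase, the enzyme that breaks down uric acid in mice, and adenine is oxidised to a product that can crystallise in tubules. The tissue was whole kidney, so the values average over all of its cells, and a loss of cells of a type cannot be told apart from less RNA in each of those cells.

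The brush border is the layer of microvilli on the apical face of the proximal tubule cell. Its surface carries ectoenzymes that face the filtrate and cut filtered peptides and glutathione into amino acids and dipeptides, which transporters of the same membrane then take up. The microvilli themselves stand on bundles of actin, with villin as one of the bundling proteins, and release of these enzymes into urine has long been used as a sign of proximal tubule injury.

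The libraries held 10963849 to 14256556 counts in day-0 mice and 12662200 to 14333311 in day-21 mice, so the members, at 297 counts or more in each mouse, lay far above the 3 counts taken as the detection floor. Levels are given as CPM, counts relative to library size after scaling by TMM, a method that takes most genes as unchanged. The TMM factors were 0.852 to 0.886 on day 0 and 1.12 to 1.17 on day 21, so the scaling itself separated the groups. The counts carried by mitochondrially encoded genes were 9.39% to 9.86% of the library on day 0 and 3.82% to 4.42% on day 21. Without TMM, by library size alone, the all-gene median of the log2 fold change moved from 0.03 to 0.42, and counts of DEGs move with it.

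The proximal tubule was checked with 19 of its markers, and each was detected in each mouse. All 19 were lower on day 21 as differentially expressed genes (DEGs, here genes over 1.5-fold apart with a Benjamini-Hochberg adjusted p under 0.05 in the quasi-likelihood test of edgeR). Their median log2 fold change was -2.12, and their summed level was 37944 to 53042 CPM on day 0 and 8023 to 11144 CPM on day 21. The 6 markers of injured tubule were all DEGs that rose, from a summed 712 to 1875 CPM to 19554 to 23504 CPM. Most of this sum was Spp1, with 513 to 1614 CPM on day 0 and 17407 to 21208 CPM on day 21. Markers of cells from outside the tubule also rose: all 6 of macrophages (144 to 184 CPM on day 0, 764 to 1056 CPM on day 21) and all 6 of fibroblasts (198 to 336 CPM and 1136 to 2146 CPM). Of the fibroblast markers Pdgfra and Dcn were DEGs whose groups overlapped. Among the markers of other nephron segments and vessels, 2 of 4 of the thick ascending limb, 4 of 6 of the distal tubule and collecting duct, 3 of 5 of podocytes and 2 of 5 of endothelium fell, and 1 of the thick ascending limb rose. By library size alone, 1 of the thick ascending limb and 1 of podocytes fell, 1 of the distal tubule and collecting duct rose, and the other counts of these 4 lists did not move. Among all genes tested 15.5% were DEGs that fell and 19.6% DEGs that rose, and 8.06% and 36.1% by library size alone. Pvalb, a marker of the distal convoluted tubule, was at 0, 0 and 1 counts on day 21 after 214, 317 and 122 on day 0. All 4 tested markers of T and B cells rose, and of the 4 neutrophil markers 2 fell and 1 rose. These markers moved with the brush border genes, and their part in the results was not tested.

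Brush border mRNA was lower in the day-21 kidney, by very unequal amounts from gene to gene. Of the 9 genes 7 were DEGs that fell, Mep1b, Mep1a, Ggt1, Dpep1, Treh, Anpep and Vil1, against 15.5% of the 16592 genes tested that were DEGs in that direction. None of the 9 was a DEG in the other direction, where the share of all genes was 19.6%. Mme and Dpp4 were not DEGs. By library size alone 6 of the 9 were DEGs that fell and none rose, against 8.06% and 36.1% of all genes. The median log2 fold change of the 9 was -1.58, beside 0.03 for all genes tested, and the log2 fold changes ran from -3.64 for Mep1b to -0.30 for Dpp4. In TMM-scaled CPM the 3 day-21 mice lay below the 3 day-0 mice for all 9 genes, which was so for 26.4% of all genes tested, while 30.7% were apart in the other direction. For each single gene the two-sided exact permutation test on log2 CPM gave p = 0.1, the smallest value that 3 mice against 3 can give.

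**Figure D1:**
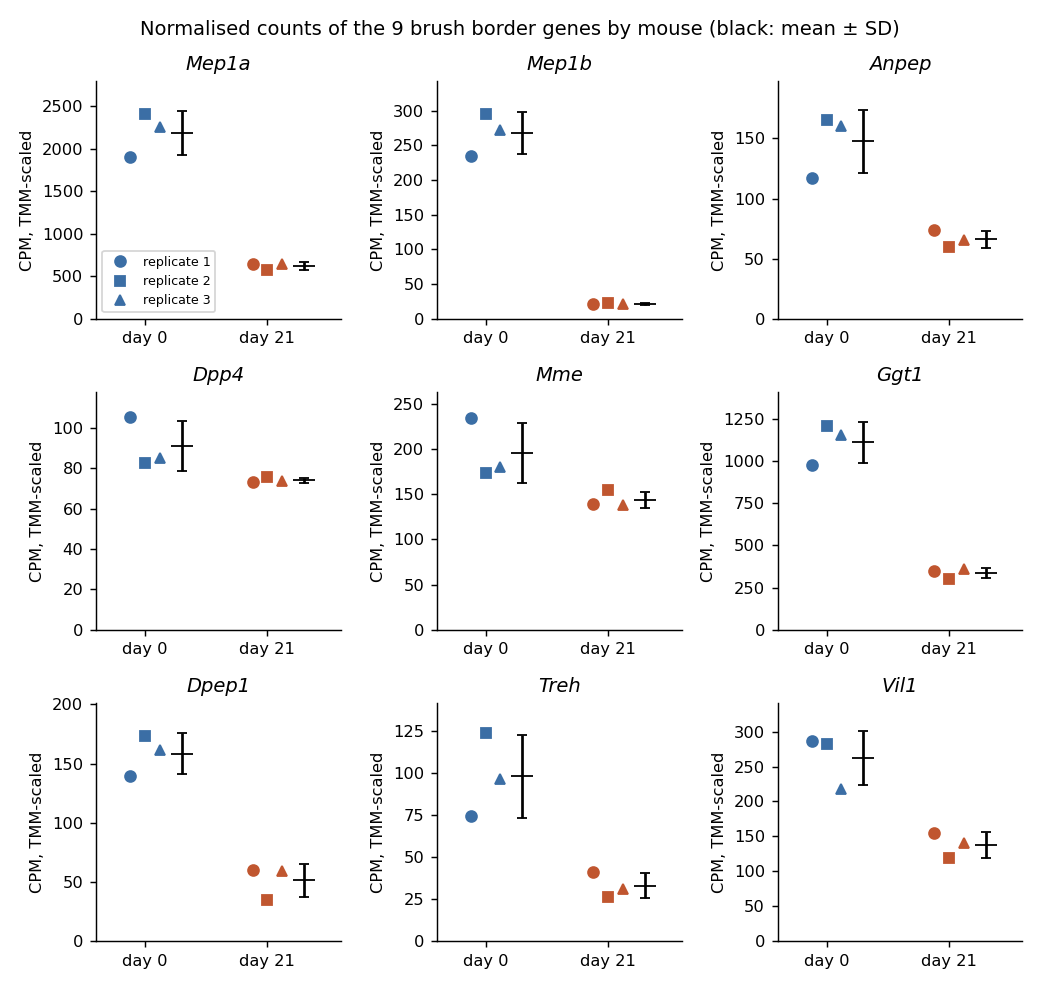
Normalised count (TMM-scaled CPM, y axis from 0) of each of the 9 brush border genes in each mouse, with day 0 in blue, day 21 in orange, the replicate shown by the symbol, and mean ± SD in black (n = 3). The day-21 points lie below the day-0 points in all 9 panels, by a wide gap for Mep1b (20.6 to 22.5 against 235 to 295 CPM) and a narrow one for Dpp4 (73.0 to 75.6 against 82.8 to 105 CPM), whose groups overlap by library size alone.

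Mep1a encodes the alpha subunit of meprin, a zinc endopeptidase of the astacin family that cuts peptides and matrix proteins at the cell surface or after secretion. The gene (ENSMUSG00000023914.16) lies on chromosome 17 from 43474324 to 43502812 on the minus strand of GRCm38. On day 0 its counts were 18970, 29280 and 21852, or 1902, 2413 and 2252 CPM, and on day 21 they were 9147, 9592 and 10526, or 647, 572 and 645 CPM. The lowest day-0 mouse was thus well above the highest day-21 mouse. The mean went from 2189 ± 261 to 621 ± 42.4 CPM (SD, n = 3), and the log2 fold change was -1.82 with a standard error of 0.13 (edgeR adjusted p = 4.6e-06), which is 3.52-fold lower.

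Mep1b encodes the beta subunit, which anchors meprin in the membrane. This gene (ENSMUSG00000024313.8), on chromosome 18, fell more than any of the other 8. Its counts were 2339, 3575 and 2645 at day 0 against 297, 378 and 336 at day 21, which is 235, 295 and 273 CPM against 21.0, 22.5 and 20.6 CPM. The day-21 mice were close together, with a coefficient of variation of 4.86%, and the groups were far apart. The log2 fold change was -3.64 with a standard error of 0.13 (edgeR adjusted p = 2e-07), so that 8.0% of the day-0 level was left, 12.5-fold less. Of the 19 proximal tubule markers only 2 had a lower log2 fold change than Mep1b, against 13 for Mep1a. The number was 13 for Ggt1, 15 for Dpep1 and 16 for Treh. All 19 markers had a lower log2 fold change than Anpep, Vil1, Mme and Dpp4.

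The 2 meprin subunits therefore did not fall by the same factor. Mep1a counts divided by Mep1b counts in the same mouse, a ratio that needs no scaling between libraries, were 8.11, 8.19 and 8.26 on day 0 and 30.8, 25.4 and 31.3 on day 21. The 3 day-0 ratios were nearly equal, and all day-21 ratios lay above them. The log2 ratio rose by 1.82 (day-0 SD 0.01, day-21 SD 0.17, exact permutation p = 0.1 and 0.143 after adjustment over the 10 ratios examined here).

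Anpep and Mme, like the meprins, are zinc peptidases. Anpep encodes aminopeptidase N, which removes single amino acids from the free end of peptides (ENSMUSG00000039062.15, chromosome 7 from 79821803 to 79861059, minus strand). Its CPM were 117, 166 and 160 at day 0 against 73.7, 59.5 and 65.7 at day 21, from 998 to 2009 counts. The groups did not overlap, although the first day-0 mouse was lower than the other day-0 mice. Its log2 fold change was -1.16 with a standard error of 0.15 (edgeR adjusted p = 0.00015), a fall to 44.9% of the day-0 level.

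Mme encodes neprilysin, an endopeptidase that degrades natriuretic peptides, bradykinin and other small peptides (ENSMUSG00000027820.12, chromosome 3 from 63241537 to 63386030, plus strand). Mme had 234, 174 and 180 CPM on day 0 and 139, 154 and 138 CPM on day 21. The first day-0 mouse stood above the rest, and the gap between the groups, from 154 to 174 CPM, was small. The log2 fold change was -0.45 with a 95% confidence interval of -0.74 to -0.15 (edgeR adjusted p = 0.02), a 1.36-fold difference that is under the 1.5-fold limit. By library size alone the same mice had 206, 148 and 159 CPM against 155, 180 and 157 CPM, which overlap.

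The coding bases around the zinc site are shown for those of the searched members in which it was found. These members share this catalytic motif and yet differed in how far their mRNA fell. The capitals mark the codons of His-Glu-X-X-His, in which both histidines bind the zinc ion and X is any amino acid. They were found by translating the longest open reading frame of each gene's GENCODE M21 transcripts.
Mep1a, codons 167 to 171: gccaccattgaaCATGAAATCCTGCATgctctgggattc
Anpep, codons 387 to 391: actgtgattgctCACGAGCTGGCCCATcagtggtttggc
Mme, codons 584 to 588: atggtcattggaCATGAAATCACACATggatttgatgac

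The Mep1a stretch lies in exon 7 of 14 (chr17:43491647-43491685, minus strand) and the Mme stretch in exon 18 of 23 (chr3:63362009-63362047, plus strand). The Anpep stretch runs across the junction of exon 6 (chr7:79839163-79839192) and exon 7 (chr7:79838993-79839001) on the minus strand. No such codons were found in the longest frames of Dpp4, Ggt1, Dpep1 (a zinc enzyme with a site of another kind), Treh and Vil1, and Mep1b was not searched. The 3 genes printed had log2 fold changes of -1.82, -1.16 and -0.45, so the motif did not go with a single size of change.

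Dpp4 encodes dipeptidyl peptidase 4, a serine peptidase that removes dipeptides with proline or alanine in second place and so inactivates incretin hormones (ENSMUSG00000035000.8, chromosome 2 from 62330073 to 62412231, minus strand). Its CPM were 105, 82.8 and 85.0 on day 0 and 73.0, 75.6 and 73.6 on day 21. The day-21 mice were nearly equal, with a coefficient of variation of 1.81%, and lay just below the lower day-0 mice. The log2 fold change was -0.30 with a 95% confidence interval of -0.56 to -0.04 (edgeR adjusted p = 0.062), and it was 0.09 by library size alone, where the groups overlapped at 93.0, 70.5 and 75.2 CPM against 81.6, 88.4 and 84.0 CPM. Taken against the median of all genes, Dpp4 stood at -0.33 with TMM and at -0.33 by library size alone. Scaling moves all genes by nearly the same amount, so both values had to be nearly equal. An antisense gene, Gm13561, shares 3.67% of the exon bases of Dpp4 and had 0 to 2 counts in each mouse.

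**Figure D2:**
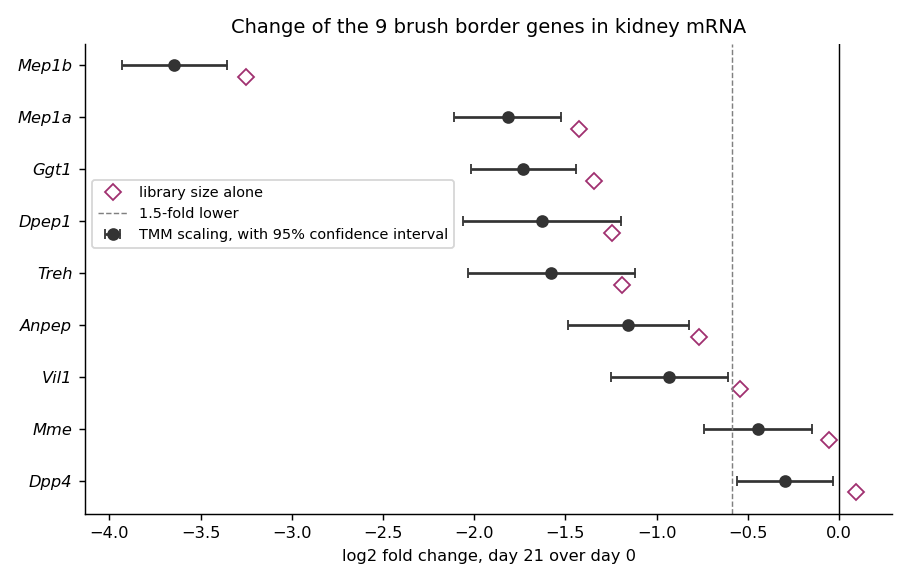
Log2 fold change (day 21 over day 0, x axis) of the 9 brush border genes with its 95% confidence interval under TMM scaling (dots), and the estimate by library size alone (open diamonds), with a dashed line at 1.5-fold lower. Mep1b stands apart at -3.64, Mep1a, Ggt1, Dpep1 and Treh lie between -1.82 and -1.58, and for Dpp4 the estimate changes sign to 0.09 by library size alone.

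Ggt1 and Dpep1 act in sequence on glutathione outside the cell. Ggt1 encodes gamma-glutamyltransferase, which splits off the glutamyl part, and Dpep1 encodes a membrane dipeptidase that cuts the cysteinylglycine left over. Ggt1 (ENSMUSG00000006345.10, chromosome 10 from 75561604 to 75586200, plus strand) had 976, 1209 and 1152 CPM at day 0 against 346, 302 and 357 CPM at day 21. After Mep1a it was the most abundant of the 9 in both groups, which were widely apart. Its log2 fold change was -1.73 with a standard error of 0.13 (edgeR adjusted p = 5.5e-06), or 3.32-fold lower.

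Dpep1 (ENSMUSG00000019278.5, chromosome 8 from 123186242 to 123201812, plus strand) had 139, 174 and 162 CPM on day 0 and 59.9, 34.9 and 58.8 CPM on day 21. The second day-21 mouse was clearly below the other day-21 mice, so the coefficient of variation on day 21 was 27.6%, the highest of the 9 genes, and the groups were still apart. The log2 fold change was -1.63 with a standard error of 0.19 (edgeR adjusted p = 8.9e-05). The count ratio of Ggt1 to Dpep1 was 7.00, 6.96 and 7.12 on day 0 and 5.77, 8.64 and 6.08 on day 21. These ratios overlapped, with a difference of -0.07 in mean log2 ratio (exact permutation p = 0.9), but the day-21 ratios were spread far more widely (SD 0.32 against 0.02), so a moderate difference between both falls would not have been detectable.

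Treh encodes trehalase, which splits the sugar trehalose into glucose (ENSMUSG00000032098.13, chromosome 9 from 44673233 to 44686305, plus strand). Its CPM were 74.2, 124 and 96.3 at day 0 against 41.1, 26.4 and 31.2 at day 21, from 443 to 1501 counts. Its day-0 values varied more than those of any other of the 9 genes (coefficient of variation 25.3%), yet the lowest of them was above every day-21 value. The log2 fold change was -1.58 with a standard error of 0.21 (edgeR adjusted p = 0.00016), or 2.99-fold lower. Of its words of 50 bases 1.55% also occur in Gm47238, so some of its counts may be assigned either way.

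Vil1, for villin, is the structural member (ENSMUSG00000026175.12, chromosome 1 from 74409376 to 74435559, plus strand). It had 287, 282 and 218 CPM on day 0 and 155, 119 and 140 CPM on day 21. The groups did not overlap. The log2 fold change was -0.93 with a standard error of 0.14 (edgeR adjusted p = 0.00047), or 1.91-fold lower, and by library size alone it was -0.54, under the 1.5-fold limit at an edgeR adjusted p of 0.0058. Usp37, on the other strand, shares 1.38% of the exon bases of Vil1 and had 204 to 316 counts per mouse.

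The mice of a group did not keep 1 order across the genes. The first day-0 mouse was the lowest of its group for 6 genes, Mep1a, Mep1b, Anpep, Ggt1, Dpep1 and Treh, and the highest for the other 3, Dpp4, Mme and Vil1. On day 21 the second mouse was the lowest for 6 of the 9. The genes for which the first day-0 mouse was the highest include both that were not DEGs, and without that mouse the log2 fold changes of all 9 kept their sign and their side of the threshold.

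Between genes, levels were compared as CPM per kilobase of exon. Mep1a was the highest on day 0 with 634 ± 75.7, above 99.6% of all tested genes, followed by Ggt1 with 326 ± 35.7 and Mep1b with 102 ± 11.6. Vil1 (73.9), Dpep1 (63.6), Treh (47.9) and Anpep (35.7) came next, each overlapping its neighbour in this order, and Mme (16.9) and Dpp4 (14.4) overlapped each other as the lowest. On day 21 Mep1a (180 ± 12.3) and Ggt1 (98.2 ± 8.67) still led, and Vil1 (38.8) now came next, apart from Dpep1 (20.6). The order of Dpep1, Treh (16.1) and Anpep (16.0) was within their spread, as was that of Mme (12.4) and Dpp4 (11.7). Mep1b moved from the third place to last, with 8.14 ± 0.40 CPM per kilobase, below all Dpp4 values and at the 64.4th percentile of all tested genes after the 96.6th. Mep1a in contrast stayed at the 98.9th percentile.

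The 9 genes together held 0.359%, 0.419% and 0.405% of all counts at day 0 against 0.174%, 0.160% and 0.175% at day 21. The groups were apart, and the mean share went from 0.394% ± 0.031 to 0.169% ± 0.0084 (SD, n = 3), 2.33-fold lower (two-sided exact permutation p = 0.1). Mep1a and Ggt1 dominate this sum. Without Mep1a the share of the other 8 was 2.07-fold lower.

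Within the sum the make-up shifted. Mep1a made up 48.3% ± 1.38 of the counts of the 9 genes on day 0 and 41.9% ± 0.29 on day 21, and Mep1b went from 5.90% ± 0.12 to 1.45% ± 0.18. In the other direction Mme went from 4.40% ± 1.18 to 9.74% ± 1.33, Dpp4 from 2.04% ± 0.48 to 5.01% ± 0.46, Vil1 from 5.85% ± 1.15 to 9.26% ± 0.63 and Anpep from 3.25% ± 0.33 to 4.46% ± 0.24. In each of these genes the 3 mice of a group lay on 1 side of those of the other group (exact permutation p = 0.1, and 0.129 after adjustment over the 9 genes). Ggt1, at 24.6% and then 22.6%, was also apart but overlapped once counts were divided by exon length, and Dpep1 (3.50% and 3.42%) and Treh (2.15% and 2.21%) overlapped.

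**Figure D3:**
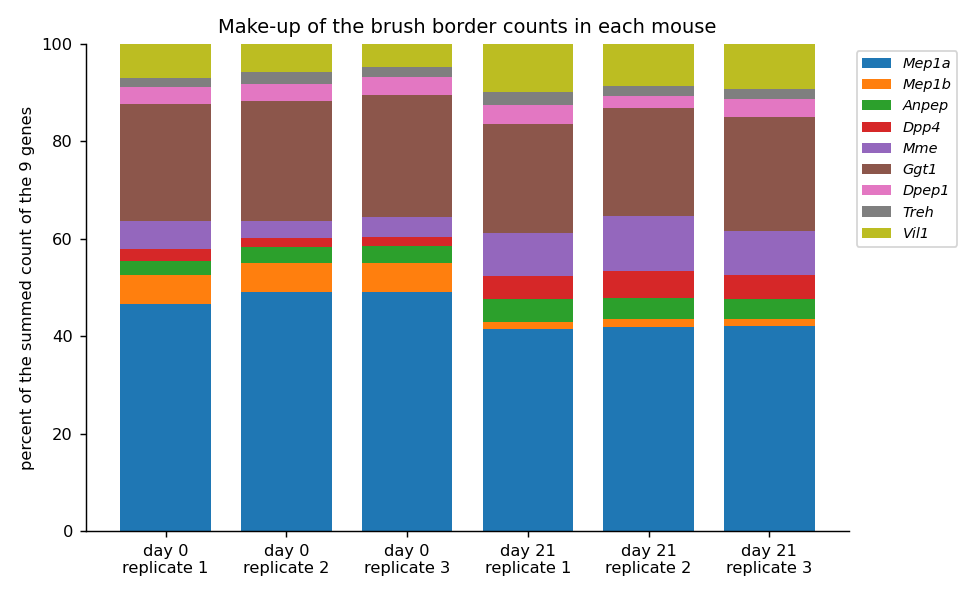
Share of each of the 9 genes in their summed count (y axis, percent, from 0 to 100) in each of the 6 mice. The Mep1b band shrinks from about 5.90% on day 0 to 1.45% on day 21, while the bands of Mme, Dpp4 and Vil1 widen, and Mep1a and Ggt1 hold most of the sum in every mouse.

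Villin served as a reference inside each library, since it belongs to the microvillus core and not to the enzymes on it. Relative to Vil1, the log2 ratio fell by 2.71 for Mep1b, by 0.88 for Mep1a, by 0.80 for Ggt1 and by 0.74 for Dpep1, with all day-21 ratios below all day-0 ratios. The ratio was higher on day 21 in all mice for Dpp4 (by 0.64) and Mme (by 0.49). For Anpep (-0.22, exact permutation p = 0.4) and Treh (-0.64, exact permutation p = 0.2) the ratios overlapped. The value for Anpep was -0.02 without day-0 mouse 3 and -0.44 without day-0 mouse 1. Each of the separated ratios had an exact permutation p of 0.1, the smallest possible, and 0.143 after adjustment over the 10 ratios. As these are ratios of counts, the scaling of libraries does not enter them, and they show unequal change without saying which gene of a pair changed.

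**Figure D4:**
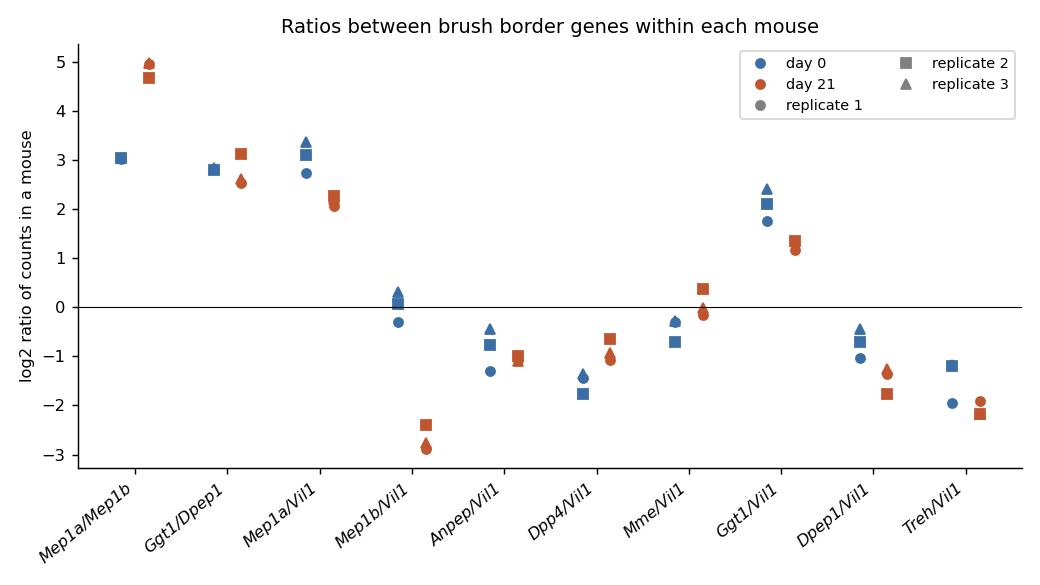
Log2 ratio of the counts of gene pairs within each mouse (y axis), for Mep1a over Mep1b, Ggt1 over Dpep1 and each of 8 genes over Vil1, with day 0 in blue and day 21 in orange and the replicate shown by the symbol. Mep1a over Mep1b lies near 3.03 in all day-0 mice and between 4.66 and 4.97 on day 21, whereas Ggt1 over Dpep1 overlaps.

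Put in order of their falls, several neighbours did not differ beyond the spread between mice. The log2 ratios of Ggt1 to Dpep1, Dpep1 to Treh and Anpep to Vil1 overlapped between the groups. Mep1a and Ggt1 differed by only 0.08 on the log2 scale, with the day-21 ratios all below the day-0 ratios, and Mme and Dpp4 by 0.15 in the same manner.

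The genes with the most similar profile over the 6 mice were sought for each of the 7 DEGs, by the distance between log2 CPM values centred on their mean. The nearest gene to Mep1a was Ggt1, at a distance of 0.12, followed by Gcdh, glutaryl-CoA dehydrogenase of lysine breakdown, at 0.14. Ggt1 in turn was nearest to Mep1a and then to Adra1a, an adrenergic receptor gene (0.12). For Anpep the nearest were Galns, a lysosomal sulfatase gene (0.07), and Them7 (0.14), and for Vil1 they were Slc5a6, a vitamin transporter gene (0.10), and Syp (0.12). Dpep1 was nearest to Ggt7 (0.19), a relative of Ggt1, and to Gm15638 (0.25). Treh was nearest to Slc22a2, an organic cation transporter gene of the basolateral membrane (0.23), and to Slc16a9 (0.23). Mep1b had no close neighbour of comparable count: Gm9973 (0.22) had 50, 89 and 55 counts at day 0 and none in any day-21 mouse, so its distance depends on the pseudocount, and Slc7a13, a transporter gene of the late proximal tubule and one of the 19 markers, followed at 0.51. With 6 mice in 2 groups, such distances mostly reflect the size of the difference between the groups.

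Other apical membrane peptidases were examined as a list of 13 genes, of which 9 passed the filter on low counts. Of these 5 were DEGs that fell and none rose, with a median log2 fold change of -0.75 beside 0.03 for all genes. By library size alone 4 were DEGs that fell and 1 rose. The shares of all genes tested were 15.5% falling and 19.6% rising, and 8.06% and 36.1% by library size alone. Ace, angiotensin-converting enzyme, had 1634, 3541 and 3786 counts at day 0 against 1278, 705 and 1069 at day 21, with a log2 fold change of -2.10 (edgeR adjusted p = 0.00049). Its first day-0 mouse was far below the other day-0 mice. Xpnpep2, membrane aminopeptidase P, fell by 2.00 on the log2 scale and Ggt7 by 1.65. The other 2 DEGs, named after their values were seen, were Cltrn (-1.27) and Enpep (-0.75), which encodes an aminopeptidase that cuts angiotensins. Mgam, the only brush border disaccharidase gene besides Treh that passed the filter, had 1230, 1424 and 1152 counts at day 0 against 587, 580 and 594 at day 21 (log2 fold change -1.68, edgeR adjusted p = 2.7e-06), close to the -1.58 of Treh.

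The sequence relatives of the 9 genes were spread to both sides, in shares near those of all genes. Of 35 genes in the same families 21 passed the filter, 3 were DEGs that fell and 5 were DEGs that rose, and the median log2 fold change was -0.01, or 0.38 by library size alone, where 2 fell and 10 rose. Of all genes tested 15.5% were DEGs that fell and 19.6% DEGs that rose, and 8.06% and 36.1% by library size alone. Among those that rose, Bmp1, an astacin peptidase like the meprins that trims procollagen, went from 8.39 ± 2.06 to 53.6 ± 6.31 CPM, a log2 fold change of 2.67 (edgeR adjusted p = 3.4e-06). Capg, an actin-capping relative of villin found in macrophages, rose by 2.55 on the log2 scale. Fap, the closest relative of Dpp4 and known from activated fibroblasts, had 1, 0 and 0 counts at day 0 against 16, 11 and 22 at day 21. The falls were Ggt7, Enpep and Vill, a villin-like gene, with -1.65, -0.75 and -1.17. Ggt7 and Enpep were also counted above among the other apical membrane peptidases, so these lists are not separate.

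**Figure D5:**
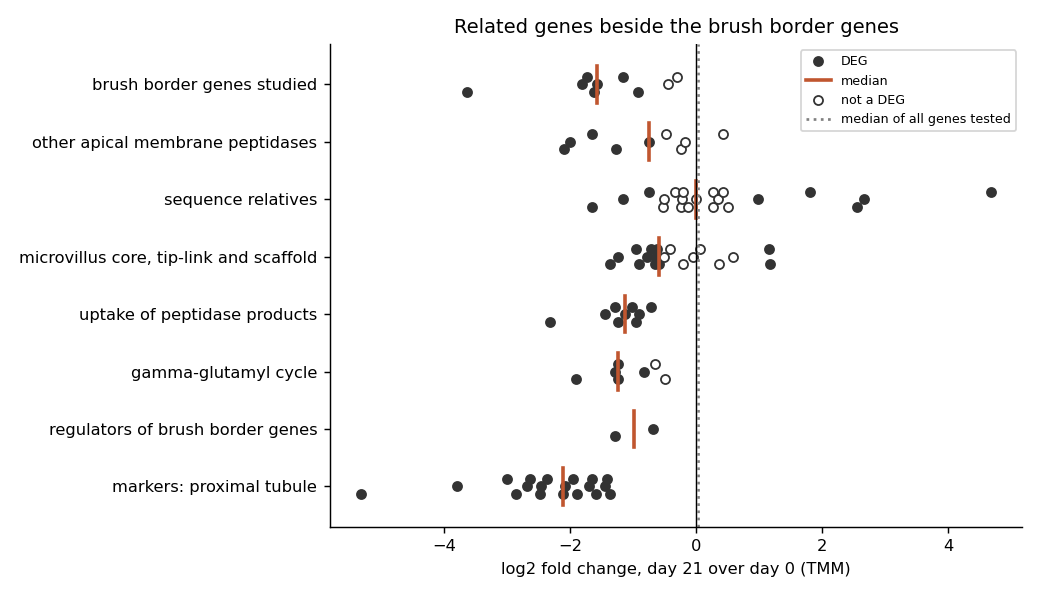
Log2 fold change (day 21 over day 0, TMM scaling, x axis) of each tested gene in the lists named on the y axis, with DEGs filled, other genes open, the list's median as an orange bar and the median of all genes tested (0.03) as a dotted line. The 9 brush border genes have a median of -1.58 and the 19 proximal tubule markers one of -2.12, while the sequence relatives spread to both sides of a median of -0.01, which moves to 0.38 by library size alone.

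The microvillus was examined with 20 genes of its core, tip links and scaffold, 19 of which passed the filter. Of these 10 were DEGs that fell and 2 rose, with a median log2 fold change of -0.59. By library size alone 2 fell and 4 rose, where 8.06% of all genes fell and 36.1% rose, so little beyond the background was left in that setting. Pdzk1, a scaffold that holds transporters in the apical membrane, had a log2 fold change of -1.38, Eps8, which caps and bundles actin at microvillus tips, one of -1.25, and Tmigd1 one of -0.96. Prom1, a pentaspan protein of membrane protrusions, rose by 1.18 and Fscn1, an actin bundler of filopodia, by 1.15.

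Transporters for the products of peptide cleavage moved in 1 direction. All 9 tested genes of a list of 10 were DEGs that fell, with a median log2 fold change of -1.13. By library size alone 6 of them were still DEGs. Among all genes tested 15.5% were DEGs that fell, and 8.06% by library size alone. Slc6a19, the main carrier for neutral amino acids, had 4989, 3765 and 2766 counts at day 0 against 1161, 1081 and 1172 at day 21, a log2 fold change of -2.33 (edgeR adjusted p = 1.5e-05). Slc6a20b (-1.45), of the family of imino acid carriers, and Slc3a1, a subunit of the carrier for cystine and basic amino acids (-1.30), followed. Among 7 genes for the steps of the gamma-glutamyl cycle inside the cell, 5 were DEGs that fell and none rose. The median of the 7 was -1.24, and 4 fell by library size alone. The falls were led by Ggct (-1.90), Gclc (-1.30), which catalyses the first step of glutathione synthesis, and Gss (-1.24), the enzyme of its second step.

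Of 3 transcription factor genes known as regulators of brush border genes, Hnf4a and Hnf4g were DEGs that fell, while Cdx2, a factor of intestine, had no count in any mouse. Hnf4a had 1232 ± 130 CPM on day 0 and 506 ± 73.7 CPM on day 21 (SD, n = 3), a log2 fold change of -1.28 with an edgeR adjusted p of 5.3e-05. Hnf4g, a low gene at 62 to 84 counts per mouse, had a log2 fold change of -0.68 (edgeR adjusted p = 0.042). Only 1 of these 2 was called with upper quartile scaling, by library size alone, with the replicate number as a block, or without day-0 mouse 2 or 3 or day-21 mouse 2 or 3.

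As Hnf4a fell in the same mice, the 250 bases upstream of their RefSeq transcript starts (GRCm38.p6) were searched on both strands for a word bound by the HNF4 family, and 8 of the 9 genes had an entry to search. The HNF4 word CAAAGTCCA was exact in 1 gene, Treh, and present with up to 1 mismatch in 2, Treh and Ggt1, beside 0.451% and 8.04% of all genes. The share with an exact word rests on 1 gene. Ggt1 had 4 promoters searched, so it had more chances of a match than a gene with 1. Of all promoters 7.05% had the word with up to 1 mismatch. The promoter of Treh is shown as the only one with an exact word, 71 to 63 bases upstream on the minus strand, and 2 of the 4 promoters of Ggt1 as those with a single mismatch. Capitals mark each match.
Treh, chr9:44672983-44673232, plus strand: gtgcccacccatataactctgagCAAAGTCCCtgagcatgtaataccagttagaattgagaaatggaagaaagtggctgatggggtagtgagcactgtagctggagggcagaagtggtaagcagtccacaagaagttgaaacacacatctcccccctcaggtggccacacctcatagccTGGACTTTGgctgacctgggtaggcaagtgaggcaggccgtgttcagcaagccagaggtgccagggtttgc
Ggt1, promoter 1, chr10:75563882-75564131, plus strand: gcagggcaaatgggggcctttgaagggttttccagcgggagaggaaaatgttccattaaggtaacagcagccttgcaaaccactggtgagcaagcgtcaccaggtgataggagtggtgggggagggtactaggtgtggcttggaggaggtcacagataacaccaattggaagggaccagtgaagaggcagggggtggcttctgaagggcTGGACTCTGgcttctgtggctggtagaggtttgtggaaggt
Ggt1, promoter 4, chr10:75573245-75573494, plus strand: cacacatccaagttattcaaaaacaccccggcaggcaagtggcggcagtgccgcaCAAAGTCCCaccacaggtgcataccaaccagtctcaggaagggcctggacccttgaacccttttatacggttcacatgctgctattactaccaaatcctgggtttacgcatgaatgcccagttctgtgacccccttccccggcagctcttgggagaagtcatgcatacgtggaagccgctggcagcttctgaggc

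The Treh promoter also holds a copy with 1 mismatch on the plus strand, 227 to 219 bases upstream. These matches are a description of the letters in these windows. The counts give 1 value per gene, so the use of the 4 promoters of Ggt1 in either group could not be seen. No GENCODE M21 transcript of Ggt1 matched the start that follows promoter 1, and 1 matched that of promoter 4. The starts after promoters 2 and 3, which held no HNF4 word, were matched by 5 and 2 transcripts.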

How the data were processed

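Kidney mRNA of 3 day-0 and 3 day-21 mice was sequenced with paired reads. The authors deposited raw counts per gene for each mouse, and the labels name TopHat and the build mm10. The program that counted the reads and its use of strand are not given in the sources used here. All 55450 gene identifiers matched GENCODE M21.

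Genes were filtered with filterByExpr (minimum count 10, minimum total 15), which left 16592, and scaled by TMM. The groups were compared over all of these with edgeR 4.0.16 (quasi-likelihood test, Benjamini-Hochberg adjustment, biological coefficient of variation 16.2%), in R 4.3.3, and a DEG had to differ over 1.5-fold at an adjusted p under 0.05. The script was tested on simulated data. Shares and log2 ratios (pseudocount 0.5) were compared by two-sided exact permutation tests. Replicates were taken as separate mice, which the labels do not spell out, and p-values measure only the spread between these samples, which may be technical. No 2 libraries of a group agreed within sampling noise (chi-square per gene 7.17 to 25.7).

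Alternatives were RLE, upper quartile and library size scaling, no filter or a mean of 50 counts, DESeq2 1.42.0, limma-voom (limma 3.58.1), a replicate block, other thresholds, and leaving out mitochondrially encoded genes, the highest genes or each mouse. The 9 genes, the lists and the tests were chosen with earlier results of these data known. In lists of over 6 tested genes the named ones are the 3 largest rises and falls among DEGs, with exceptions stated, and for each of the 7 DEGs among the 9 the 2 genes nearest in profile are named. Lists and marker sets are described by counts and medians, and no set was tested. Some genes of the lists and a promoter word searched for are not reported here, and the list counts leave those genes out.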

Additional observations from a re-analysis of the deposited data

How the results depend on the processing

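Of the 9 log2 fold changes, 7 kept their sign and their side of the threshold under all 16 alternatives. The exceptions came with library size alone, where Dpp4 reversed to 0.091 (edgeR adjusted p = 0.548) and Vil1, at -0.54, was no longer over the 1.5-fold limit. Mme kept its side only because it was not a DEG in the main setting either. Its log2 fold change of -0.45 became -0.06 by library size alone (edgeR adjusted p = 0.743). Without day-21 mouse 1 or 3 its edgeR adjusted p was 0.0686 or 0.0844. That scaling shifts the median of all genes from 0.03 to 0.42, lowers the genes called as falling from 2572 to 1338, and raises the share of DEGs that are higher from 55.8% to 81.7%. Taken against the median of all genes, the median of the 9 genes was -1.61 with TMM and -1.61 by library size. A change of scaling moves all genes by nearly the same amount, so both values had to be nearly equal and are no check on the result. The number of the 9 called as falling was 7, and it was 6 by library size, 6 at adjusted p under 0.01 with a fold over 2, 8 at any fold, and 7 without any one mouse. Of all genes tested 21.7% were called as falling at any fold. Their shares at the stricter threshold and without a mouse were not computed. Among the lists, library size alone moved the microvillus genes to 2 lower and 4 higher, the other apical peptidases to 1 higher, the sequence relatives to 10 higher and the regulators to 1 lower. Upper quartile scaling left 6 microvillus genes and 1 regulator lower, and the stricter threshold left 2 of them and 1 regulator lower. At any fold 5 of the 21 tested sequence relatives were lower, beside 21.7% of all genes. The 2 regulators called lower became 1 with the replicate block, and ranged from 1 to 2 when mice were left out. The log2 change of the summed share was -1.22, and it was -1.61 on TMM-scaled libraries and -1.05 without Mep1a. Per exon length the changes in share were -3.39 points for Mep1a, -5.70 for Mep1b, 1.82 for Dpp4, 1.81 for Mme and -0.36 for Ggt1. Apart from the thresholds, the denominators and the shift of the median shown, the cause of these changes was not tested.

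Same-numbered mice of both groups had deviations that correlated at -0.03, 0.17 and 0.10, so the numbers were not taken to pair the mice, and a fit with the replicate number as a block left 1 of the 2 regulators lower, gave 9 microvillus genes lower and 3 higher in place of 10 and 2, and changed neither the calls of the 9 genes nor the counts of the other lists. Of the 20 highest genes 16 were left out, since the others are members or listed genes. With 3 mice a group the 95% confidence interval for Dpp4 ran from -0.56 to -0.04, from almost no difference to nearly 1.5-fold.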
